A study of Rattus norvegicus with 12 samples.

Results

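Transcripts of 5 matrix metalloproteinases (Mmp2, Mmp3, Mmp9, Mmp13 and Mmp14) and of their inhibitor Timp1 were followed in rat urethral tissue. These 6 genes were picked by Ensembl ID out of the 32623 gene rows of a count table. The IDs are ENSRNOG00000016695 (Mmp2), ENSRNOG00000032626 (Mmp3), ENSRNOG00000017539 (Mmp9), ENSRNOG00000008478 (Mmp13), ENSRNOG00000010947 (Mmp14) and ENSRNOG00000010208 (Timp1). The count table carries no symbols, and the RefSeq gene table (47357 rat genes) lists all 6 symbols but 0 Ensembl IDs, so the pairing of ID and symbol is the one by which the genes were chosen and was not checked independently. All tissue came from male rats, in 4 groups of 3 libraries: injury of the urethra followed by a tetrahedral DNA nanostructure (TDN, a cage-like particle folded from synthetic DNA strands), injury followed by rapamycin (an inhibitor of the mTOR kinase), injury with no further treatment named, and sham without urethral injury. The injury was mechanical, so the first 3 groups share it. Strain, age, dose, route and harvest time are not in the labels, nor is vehicle in the injury group. Nothing states that each library is a separate animal, so p-values reflect the spread between libraries, part or all of which may be technical.

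Matrix metalloproteinases are zinc-dependent enzymes that cut the proteins of the extracellular matrix. They are made as inactive proenzymes and are held in check by the TIMP proteins, which bind the active site. Mmp14 sits in the cell membrane and activates pro-Mmp2. Mmp2 and Mmp9 are the gelatinases, which digest denatured collagen and basement membrane. Mmp13 is the main interstitial collagenase of rodents, and Mmp3 is a stromelysin that cuts many matrix proteins and activates other proenzymes. Timp1 is a secreted inhibitor of most of these enzymes and a weak inhibitor of Mmp14. In wounds, Mmp2 and Mmp14 are typical of fibroblasts, Mmp9 of leukocytes and migrating epithelium, and the balance of proteases and inhibitors bears on how much scar matrix is kept.

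In the RefSeq annotation of build GRCr8, which is not the build of the counts (Rnor 6.0), Mmp3 and Mmp13 lie in one cluster of protease genes on chromosome 8. Mmp3 sits between Mmp1b and Mmp1, and Mmp13 next to Mmp12. Timp1 lies on chromosome X inside the span of Syn1, a synaptic vesicle gene on the opposite strand. How the counting treated strand is not given in the sources used here. Whether reads of an unspliced Syn1 transcript entered the Timp1 counts is therefore not known. How reads shared by the related protease genes were counted is not given either. Mmp2 lies on chromosome 19, Mmp9 on chromosome 3 and Mmp14 on chromosome 15, each with no overlapping gene in that table. The promoter table held 3 of the 6 genes, Mmp3, Mmp13 and Timp1, and the 250 bases before the annotated start are printed for each of them. Capitals mark exact matches to TGANTCA, the consensus recognition sequence of the AP-1 (Fos and Jun) factors, which reads the same on both strands. The regions are chr8:12925031-12925280 (plus strand) for Mmp3, chr8:12782579-12782828 (plus strand) for Mmp13 and chrX:3771123-3771372 (minus strand) for Timp1, all in GRCr8 and written 5′ to 3′.
Mmp3: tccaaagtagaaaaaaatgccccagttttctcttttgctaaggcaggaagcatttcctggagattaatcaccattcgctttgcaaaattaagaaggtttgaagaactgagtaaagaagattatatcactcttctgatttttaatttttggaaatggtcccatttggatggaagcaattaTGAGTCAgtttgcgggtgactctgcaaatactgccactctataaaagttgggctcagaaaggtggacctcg
Mmp13: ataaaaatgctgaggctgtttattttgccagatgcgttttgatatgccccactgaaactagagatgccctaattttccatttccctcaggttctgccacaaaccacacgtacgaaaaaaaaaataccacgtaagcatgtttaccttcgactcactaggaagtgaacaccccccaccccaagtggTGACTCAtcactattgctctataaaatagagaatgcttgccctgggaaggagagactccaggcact
Timp1: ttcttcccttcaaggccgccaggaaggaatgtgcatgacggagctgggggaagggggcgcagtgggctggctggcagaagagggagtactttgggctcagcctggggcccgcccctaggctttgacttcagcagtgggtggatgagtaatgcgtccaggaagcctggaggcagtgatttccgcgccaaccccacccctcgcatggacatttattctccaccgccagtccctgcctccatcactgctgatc
Mmp3 held 1 match, 71 to 65 bases before the start, and Mmp13 held 1 match, 66 to 60 bases before it. The Timp1 window held 0 exact matches. Sites that depart from TGANTCA were not searched, so this does not show that Timp1 lacks an AP-1 site. Over all 33469 promoters of the table, 6.34% held at least 1 match in the same window. The letters TATAAA, a search added after the sequences were seen, began 32 bases before the start in Mmp3 and 47 bases before it in Mmp13, and 12.9% of all promoters held them on either strand. A match in these letters is not a measured binding site.

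Total counts per library ran from 48494270 to 52531529 in TDN, 44765817 to 54590459 in rapamycin, 49403631 to 55928721 in injury and 50336330 to 51078180 in sham. Rapamycin replicate 2 stood apart, with 17475 genes with a count and a TMM scaling factor of 0.660, where the other libraries had at least 18659 genes and a factor of at least 0.873. Levels are given as CPM, counts scaled by library total and TMM factor. They are not divided by transcript length, so levels are compared between libraries and never between genes. In bulk tissue, fewer cells of a type and less RNA per cell cannot be told apart. Markers of the tissue and of other cell types were not evaluated, because no table at hand pairs the IDs with symbols.

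Mmp2, the constitutive gelatinase, had a higher mean in all 3 injured groups than in sham. It had 2280.0, 1501 and 1304 CPM in TDN replicates 1 to 3, 3282, 1685 and 1577 CPM in rapamycin, 2229, 1495 and 1411 CPM in injury, and 1368, 1056 and 1144 CPM in sham. All rapamycin and injury libraries exceeded the sham libraries, and 1 TDN library (replicate 3) lay inside the sham range. The highest library of each injured group was replicate 1.

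Mmp14, the membrane protease that activates pro-Mmp2, had 565, 335 and 400.1 CPM in TDN, 603, 74.0 and 518 CPM in rapamycin, 364, 274 and 289.8 CPM in injury, and 300.1, 324 and 302 CPM in sham. The 3 TDN libraries lay above the 3 sham libraries, and injury lay on both sides of sham. Rapamycin replicate 2, at 74.0 CPM, was the lowest of all 12 libraries, while the other 2 rapamycin libraries ranked 1st and 3rd. It is the library with the low scaling factor. Its 2188 counts came to 48.9 CPM by library total alone, against 273 to 574 CPM in the other 11 libraries.

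Mmp3, the stromelysin, had 129, 6.80 and 54.8 CPM in TDN, 738, 510.3 and 197 CPM in rapamycin, 182, 83.9 and 18.1 CPM in injury, and 8.40, 5.97 and 8.54 CPM in sham. All 3 rapamycin libraries lay above all other libraries. Injury lay above sham throughout, whereas TDN replicate 2 lay among the sham libraries.

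Mmp13, the collagenase, had 17.4, 1.03 and 3.75 CPM in TDN, 289, 71.8 and 197 CPM in rapamycin, 20.6, 11.95 and 0.203 CPM in injury, and 0, 0.228 and 0.386 CPM in sham. The sham libraries held 0, 13 and 21 counts, and the 0 in replicate 1 allows a level of up to 0.0549 CPM (3 counts, counting error only). Rapamycin and TDN did not overlap sham. Injury replicate 3, with 11 counts, lay inside the sham range.

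Mmp9, the inducible gelatinase, had 72.1, 8.23 and 23.7 CPM in TDN, 346, 122 and 131 CPM in rapamycin, 38.5, 91.7 and 2.96 CPM in injury, and 0.512, 0.911 and 1.18 CPM in sham. No injured library of any group fell to the level of a sham library. The 3 rapamycin libraries were the 3 highest of the 12.

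Timp1, the inhibitor, had 190.5, 83.8 and 102 CPM in TDN, 792, 1262 and 141 CPM in rapamycin, 1658, 298 and 101 CPM in injury, and 106, 85.6 and 117 CPM in sham. The level in injury rested mostly on replicate 1, the highest of the 12 libraries. Injury replicate 3 lay inside the sham range, and so did TDN replicate 3, while TDN replicate 1 lay above it and TDN replicate 2 just under it. The lowest rapamycin library (replicate 3) was above all sham libraries.

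**Figure D1:**
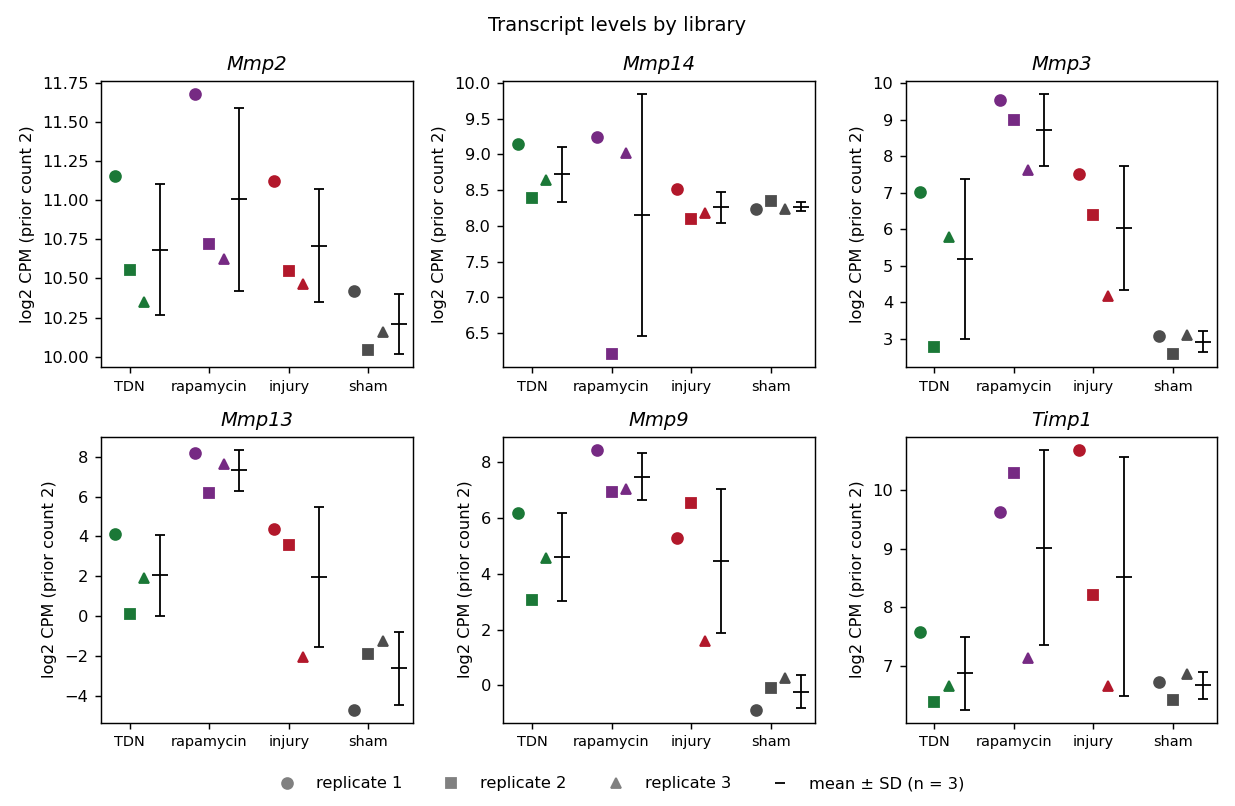
Level of each gene in each library on the log2 CPM scale (y axis, prior count 2) by group (x axis), with 1 symbol per replicate and the mean ± SD of 3 libraries beside it. Mmp3, Mmp9 and Mmp13 are highest in rapamycin, Timp1 is near sham in TDN, and rapamycin replicate 2 is far below the rest for Mmp14.

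Within a group, several genes shared the order of the libraries. TDN replicate 1 was the highest TDN library for all 6 genes, and TDN replicate 2 was the lowest for 5. Injury replicate 1 was the highest for 5 genes and injury replicate 3 the lowest for 5. Rapamycin replicate 1 was the highest for 5 genes, with Timp1 as the exception. The distance from the sham mean (root mean square of log2 differences over the 17521 tested genes) was taken as a measure of the whole library. It was 0.974, 0.888 and 0.843 in TDN replicates 1 to 3, 1.62, 2.56 and 1.08 in rapamycin, and 1.74, 1.42 and 1.11 in injury. Sham replicates 1 to 3, each against the mean of the other sham libraries, were at 0.687, 0.559 and 0.779. The library farthest from sham was thus also the one with most of the high protease levels in TDN and in injury, but not in rapamycin. The part of this library-wide difference in the levels of the 6 genes was not tested.

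**Figure D2:**
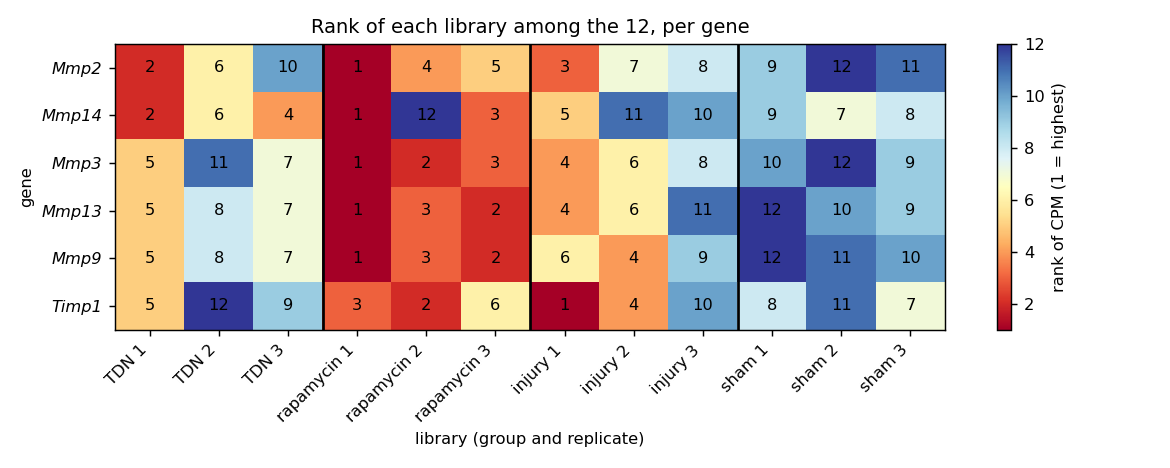
Rank of each library (x axis, group and replicate) among the 12 by CPM for each gene (y axis), where 1 is the highest. Rapamycin replicate 1 ranks 1 for the 5 proteases, injury replicate 1 ranks 1 for Timp1, and sham libraries hold the lowest rank for Mmp2, Mmp3, Mmp9 and Mmp13.

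The spread within TDN was large for the inducible proteases. The SD of log2 CPM in TDN was 2.18 for Mmp3, 2.02 for Mmp13 and 1.56 for Mmp9 (n = 3 libraries), where the median over the 17521 tested genes was 0.185. In TDN, 99.4% of tested genes had a smaller SD than Mmp3. In injury, the SD was 3.50 for Mmp13, 2.57 for Mmp9 and 2.04 for Timp1, beside a median of 0.514. In rapamycin, beside a median of 0.773, the SD was 1.69 for Mmp14, 1.67 for Timp1 and 1.04 for Mmp13. There it was 0.983 for Mmp3, 0.840 for Mmp9 and 0.585 for Mmp2. In sham, beside a median of 0.174, the SD was 1.83 for Mmp13, which had 34 counts there in all. It was 0.583 for Mmp9, 0.289 for Mmp3, 0.230 for Timp1, 0.19 for Mmp2 and 0.062 for Mmp14.

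Rapamycin-treated injured tissue was compared with sham to see what differed from uninjured urethra. Mmp3, Mmp9 and Mmp13 rose, 3 of the 6 genes, and all 6 had higher means than sham. The edgeR quasi-likelihood test, with a Benjamini-Hochberg threshold of 0.05, called 12.3% of all tested genes in this comparison and 9.54% as higher in rapamycin. Mmp3 averaged 482 ± 271.5 CPM in rapamycin and 7.64 ± 1.44 CPM in sham (SD, n = 3 each), a log2 fold change of 5.98 (SE 1.15, edgeR adjusted p = 0.0231). Mmp9 averaged 199.9 ± 127 CPM in rapamycin and 0.866 ± 0.334 CPM in sham, a log2 fold change of 7.85 (SE 1.34, edgeR adjusted p = 0.0216). Mmp13 averaged 186 ± 109 CPM in rapamycin and 0.204 ± 0.194 CPM in sham, a log2 fold change of 9.81 (SE 1.92, edgeR adjusted p = 0.0237). These are about 63.1, 230.2 and 898 times the sham level. The size for Mmp13 rests on 34 sham counts and is the least certain. Mmp13 passed the filter on low counts only through its level in the injured groups, so its call is not independent of that level.

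The other 3 genes were not called by edgeR in this comparison. DESeq2 called Timp1 and Mmp2 as well (DESeq2 adjusted p = 0.00779 and 0.0387), and limma voom called neither. DESeq2 thus called 5 of 6 genes higher, beside 20.9% of tested genes. Over 20 alternatives Timp1 was called in 4 (adjusted p 0.00779 to 0.177) and Mmp2 in 3 (adjusted p 0.0381 to 0.297). Timp1 averaged 732 ± 563 CPM in rapamycin and 103 ± 16 CPM in sham (log2 fold change 2.83, SE 0.97, edgeR adjusted p = 0.0679). Mmp2 had a log2 fold change of 0.88 (SE 0.34, edgeR adjusted p = 0.0914), although its libraries did not overlap those of sham. Mmp14 had a log2 fold change of 0.37 (SE 0.55, edgeR adjusted p = 0.619), or 0.91 without rapamycin replicate 2 (edgeR adjusted p = 0.0516; 0.0516 to 0.979 over 20 alternatives). In all, 5 of 6 genes lay wholly above sham, beside 23.8% of tested genes.

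The 3 calls in rapamycin were lost when some single libraries were left out, while the fold changes stayed large. No call of the 3 was left without rapamycin replicate 1 (edgeR adjusted p = 0.0537, 0.0502 and 0.0542 for Mmp3, Mmp9 and Mmp13) or without any 1 sham library (0.0735 to 0.1122). The share of all tested genes called fell with them, to 0.443% without rapamycin replicate 1 and to 0.0056% to 0.112% without a sham library. Over 20 alternatives the log2 fold change was 5.53 to 6.35 for Mmp3 (adjusted p 4.30e-09 to 0.1115), 7.21 to 8.16 for Mmp9 (1.50e-13 to 0.1115) and 9.23 to 10.71 for Mmp13 (3.42e-11 to 0.1122). In a fit of the 6 rapamycin and sham libraries alone, the edgeR adjusted p for Mmp13 was 0.0602.

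Injury was compared with sham to find which of the transcripts differed in the damaged urethra. No gene of the 6 was called by edgeR (0 of 6, beside 0.651% of all tested genes), with 4 at an unadjusted p under 0.05, beside 21.8% of tested genes. DESeq2 called 4 of the 6 higher (Mmp3, Mmp9, Mmp13 and Timp1), beside 11% of tested genes by DESeq2, 7.38% as higher. Of these 4, Mmp13 passed the filter on low counts only through its level in the injured groups. Limma voom called 0 of the 6, beside 0.925% of tested genes. The means were higher in injury for the inducible proteases and the inhibitor. Mmp9 averaged 44.4 ± 44.7 CPM in injury and 0.866 ± 0.334 CPM in sham (SD, n = 3 each), a log2 fold change of 5.68 (SE 1.22, edgeR adjusted p = 0.0576). Mmp13 averaged 10.9 ± 10.2 CPM in injury and 0.204 ± 0.194 CPM in sham (log2 fold change 5.72, SE 1.65, edgeR adjusted p = 0.107). Mmp3 averaged 94.7 ± 82.7 CPM in injury and 7.64 ± 1.44 CPM in sham (log2 fold change 3.63, SE 1.03, edgeR adjusted p = 0.104).

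Timp1 averaged 686 ± 848 CPM in injury and 103 ± 16 CPM in sham (log2 fold change 2.74, SE 0.97, edgeR adjusted p = 0.155). Without injury replicate 1 its log2 fold change was 0.96 (edgeR adjusted p = 0.659; 0.0252 to 0.659 over 21 alternatives). Injury replicate 3 was the injury library nearest to sham. Without it, all 4 of Mmp3, Mmp9, Mmp13 and Timp1 were called (edgeR adjusted p = 0.0291, 0.0140, 0.0240 and 0.0400). The share called over all tested genes was then 11.9%, 6.4% as higher. Rapamycin replicate 2 is in neither group but shares the estimate of the spread. Without it Mmp9 was also called (edgeR adjusted p = 0.0312, and 5.61e-07 to 0.234 over 21 alternatives). In that fit 11% of tested genes were called, 8.26% as higher. The libraries of Mmp2, Mmp3 and Mmp9 lay wholly above sham, 3 of 6 genes beside 19.4% of tested genes.

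Mmp2 and Mmp14 showed no called difference between injury and sham. Mmp2 had a log2 fold change of 0.53 (95% interval -0.23 to 1.28, edgeR adjusted p = 0.356). Mmp14 averaged 309 ± 48 CPM in injury and 309 ± 13 CPM in sham (SD, n = 3 each), with a 95% interval of -1.22 to 1.22 on the log2 scale, which leaves room for a change of more than 2-fold in either direction.

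TDN-treated injured tissue was compared with sham in the same way. None of the 6 was called by edgeR, as for all tested genes (0%), with 3 at an unadjusted p under 0.05 (Mmp3, Mmp9 and Mmp13), beside 5.31% of tested genes. DESeq2 called the same 3 genes higher, beside 1.79% of tested genes by DESeq2, 1.59% as higher. Of these 3, Mmp13 passed the filter on low counts only through its level in the injured groups. Limma voom called 0 of the 6, beside 0% of tested genes. Mmp9 averaged 34.7 ± 33.3 CPM in TDN and 0.866 ± 0.334 CPM in sham (SD, n = 3 each), a log2 fold change of 5.32 (SE 1.20, edgeR adjusted p = 0.281). In a fit of the 6 TDN and sham libraries alone it was called (edgeR adjusted p = 0.0256, and 1.18e-05 to 0.961 over 21 alternatives). This was 1 of 6 genes, beside 5.88% of the genes tested in that fit, 3.65% as higher. Mmp13 averaged 7.39 ± 8.77 CPM in TDN and 0.204 ± 0.194 CPM in sham (log2 fold change 5.16, SE 1.62, edgeR adjusted p = 0.491).

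Mmp3 averaged 63.6 ± 61.7 CPM in TDN and 7.64 ± 1.44 CPM in sham (log2 fold change 3.06, SE 1.003, edgeR adjusted p = 0.555). Timp1 averaged 125 ± 57 CPM in TDN and 103 ± 16 CPM in sham, a log2 fold change of 0.29 with a 95% interval of -1.72 to 2.29. Mmp9, Mmp13 and Mmp14 lay wholly above sham in TDN, 3 of 6 genes beside 15.7% of tested genes. For Mmp14 this went with a log2 fold change of 0.49 (95% interval -0.74 to 1.71).

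TDN was compared with untreated injury to ask what the nanostructure changed. None of the 6 genes was called by edgeR (0% of all tested genes were), DESeq2 (0.251%) or limma voom (0%). Of the 6, 1 gene had an unadjusted p under 0.05 in edgeR (beside 6.13% of tested genes). That gene was Timp1, which averaged 125 ± 57 CPM in TDN and 686 ± 848 CPM in injury (SD, n = 3 each), a log2 fold change of -2.45 (SE 0.96, unadjusted p = 0.0269, edgeR adjusted p = 0.649). The injury libraries at 1658 and 298 CPM lay above all TDN libraries and the third at 101 CPM lay among them. Without injury replicate 1 the log2 fold change was -0.67 (edgeR adjusted p = 0.990; 0.140 to 0.990 over 21 alternatives).

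None of the proteases had a called difference between TDN and injury. The log2 fold change was -0.36 for Mmp9 (95% interval -2.54 to 1.83), -0.56 for Mmp13 (95% interval -3.43 to 2.31) and -0.58 for Mmp3 (95% interval -2.62 to 1.47). Without injury replicate 1 the values for Mmp3 and Mmp13 were 0.32 and 0.28, on the other side of 0. Mmp2 was at -0.01 (95% interval -0.77 to 0.74) and Mmp14 at 0.48 (95% interval -0.74 to 1.71). These intervals are wide and do not show that the groups were alike. No gene of the 6 had TDN libraries wholly above or wholly below injury, beside 10.2% and 9.30% of tested genes.

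Rapamycin was compared with untreated injury next. None of the 6 genes was called by edgeR (0% of all tested genes were), DESeq2 (0.171%) or limma voom (0%). Of the 6, 2 had an unadjusted p under 0.05 in edgeR (beside 4.38% of tested genes). Mmp3, Mmp9 and Mmp13 lay wholly above injury in rapamycin, 3 of 6 genes beside 1.74% of tested genes. Mmp13 averaged 186 ± 109 CPM in rapamycin and 10.9 ± 10.2 CPM in injury (SD, n = 3 each), a log2 fold change of 4.09 (SE 1.46, unadjusted p = 0.0177, edgeR adjusted p = 0.902). Mmp3 averaged 482 ± 271.5 CPM in rapamycin and 94.7 ± 82.7 CPM in injury (log2 fold change 2.35, SE 0.97, unadjusted p = 0.0348, edgeR adjusted p = 0.902). Mmp9 averaged 199.9 ± 127 CPM in rapamycin and 44.4 ± 44.7 CPM in injury (log2 fold change 2.17, SE 1.03, unadjusted p = 0.0594, edgeR adjusted p = 0.902).

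These 3 fold changes kept their sign over 20 alternatives, at 1.84 to 3.24 for Mmp3, 1.48 to 3.23 for Mmp9 and 3.51 to 5.45 for Mmp13, and none was called. Timp1 had about the same mean in both groups, 732 ± 563 CPM in rapamycin and 686 ± 848 CPM in injury, with a log2 fold change of 0.09 that turned to -0.57 without rapamycin replicate 2 and was 1.87 without injury replicate 1. Mmp2 and Mmp14 had log2 fold changes of 0.35 and 0.36, with 95% intervals of -0.40 to 1.10 and -0.86 to 1.59.

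TDN was compared with rapamycin as the other treatment of the injured urethra. None of the 6 genes was called by edgeR (0% of all tested genes were), with 4 at an unadjusted p under 0.05 (Mmp3, Mmp9, Mmp13 and Timp1), beside 24.3% of tested genes. DESeq2 called 3 of the 6 lower in TDN (Mmp3, Mmp13 and Timp1), beside 8.99% of tested genes called lower by DESeq2. Limma voom called 0, beside 0% of tested genes. Mmp3, Mmp9 and Mmp13 lay wholly below rapamycin in TDN, 3 of 6 genes beside 17.4% of tested genes. Mmp13 averaged 7.39 ± 8.77 CPM in TDN and 186 ± 109 CPM in rapamycin (SD, n = 3 each), a log2 fold change of -4.65 (SE 1.503, edgeR adjusted p = 0.161). Mmp3 averaged 63.6 ± 61.7 CPM in TDN and 482 ± 271.5 CPM in rapamycin (log2 fold change -2.92, SE 0.99, edgeR adjusted p = 0.161). Timp1 averaged 125 ± 57 CPM in TDN and 732 ± 563 CPM in rapamycin (log2 fold change -2.55, SE 0.96, edgeR adjusted p = 0.169).

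Mmp9 averaged 34.7 ± 33.3 CPM in TDN and 199.9 ± 127 CPM in rapamycin (log2 fold change -2.53, SE 1.04, edgeR adjusted p = 0.183). Without rapamycin replicate 3, the rapamycin library nearest to sham, Mmp3 and Timp1 were called lower in TDN (edgeR adjusted p = 0.0435 and 0.0370; 0.0195 to 0.407 and 0.0370 to 0.433 over 20 alternatives). In that fit 26.8% of all tested genes were called, 16.2% as lower, beside 2 of the 6. Whether 2 of 6 departs from that share was not tested. For Mmp2 the log2 fold change was -0.36 (95% interval -1.12 to 0.39). For Mmp14 it was 0.12 (95% interval -1.10 to 1.34), and -0.40 without rapamycin replicate 2.

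**Figure D3:**
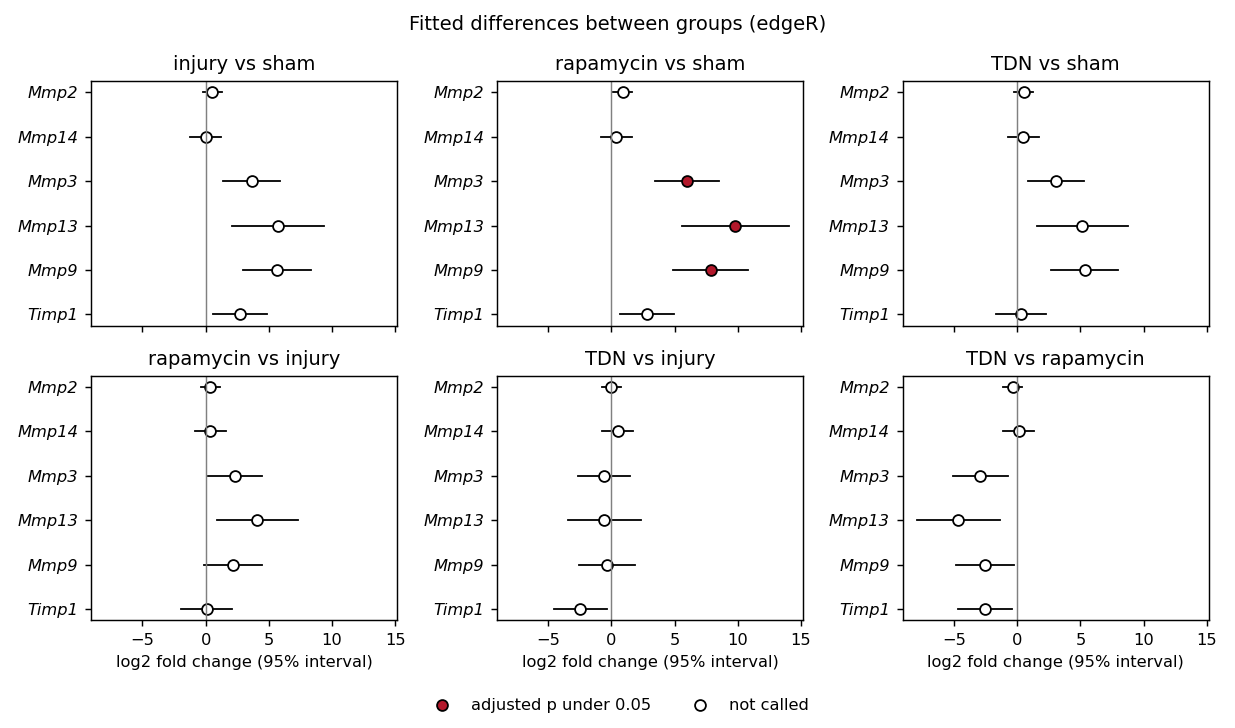
Fitted log2 fold change (x axis) with its 95% interval for each gene (y axis) in each of the 6 comparisons, the group named first over the second. Filled points mark Mmp3, Mmp9 and Mmp13 in rapamycin against sham, which had an edgeR adjusted p under 0.05, and open points were not called.

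The comparisons share libraries, so their values stand side by side and are not independent. The median log2 fold change of the 6 genes was 3.18 in injury against sham (-0.01 over all tested genes), 4.40 in rapamycin against sham (-0.05) and 1.78 in TDN against sham (-0.02). It was 1.27 in rapamycin against injury (-0.03), -0.46 in TDN against injury (0.00 over all tested genes to 2 decimals) and -2.54 in TDN against rapamycin (0.04). All 6 genes passed the filter on low counts, but Mmp13 would not have passed it on its sham libraries alone, so it was tested only because of its level in the injured groups.

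By group mean, Mmp3, Mmp9 and Mmp13 followed the same order, with rapamycin first, then injury, TDN and sham. In that order the neighbours injury and TDN did not differ beyond their spread for any of the 3. Timp1 had the same order of means, with rapamycin and injury overlapping and TDN overlapping sham. Mmp2 had rapamycin highest and sham lowest with injury and TDN at nearly the same mean, 1695 ± 516 CPM in TDN and 1712 ± 450.2 CPM in injury (SD, n = 3 each). Mmp14 had another order, with 433 ± 118.5 CPM in TDN, 399 ± 284 CPM in rapamycin, 309 ± 48 CPM in injury and 309 ± 13 CPM in sham, and no neighbours in it differed beyond their spread.

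The ratio of a protease transcript to Timp1 within a library does not depend on library size or scaling. It describes transcripts, not enzyme activity. For Mmp14 there were 296, 399 and 393.5 counts per 100 Timp1 counts in TDN replicates 1 to 3, 76.2, 5.87 and 367 in rapamycin, 22.0, 91.9 and 288 in injury, and 282.5, 379 and 259 in sham. TDN overlapped sham in this ratio, and in injury and rapamycin 2 of 3 libraries lay below all sham libraries. For Mmp2 the ratio was 1197, 1791 and 1282 in TDN, 414, 134 and 1119 in rapamycin, 134 (replicate 1), 501 (replicate 2) and 1401 (replicate 3) in injury, and 1287, 1234 and 980.3 in sham. The same 2 libraries of injury and of rapamycin were low.

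The inducible proteases gave another picture. For Mmp3 there were 67.8, 8.12 and 53.9 counts per 100 Timp1 counts in TDN, 93.1, 40.4 and 139.8 in rapamycin, 10.99, 28.1 and 17.9 in injury, and 7.90, 6.98 and 7.32 in sham. Every library of the injured groups lay above every sham library, but TDN replicate 2 (8.12) only just above sham replicate 1 (7.90). For Mmp9 the ratio was 37.9, 9.82 and 23.3 in TDN, 43.7, 9.68 and 93.0 in rapamycin, 2.32, 30.7 and 2.94 in injury, and 0.482, 1.06 and 1.01 in sham. In 2 of the 3 injury libraries this ratio was below that of every TDN library. For Mmp13 it ran from 1.23 to 9.13 in TDN, 5.69 to 139.4 in rapamycin, 0.202 to 4.01 in injury and 0 to 0.330 in sham. The ratios were added as a description and carry no test.

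**Figure D4:**
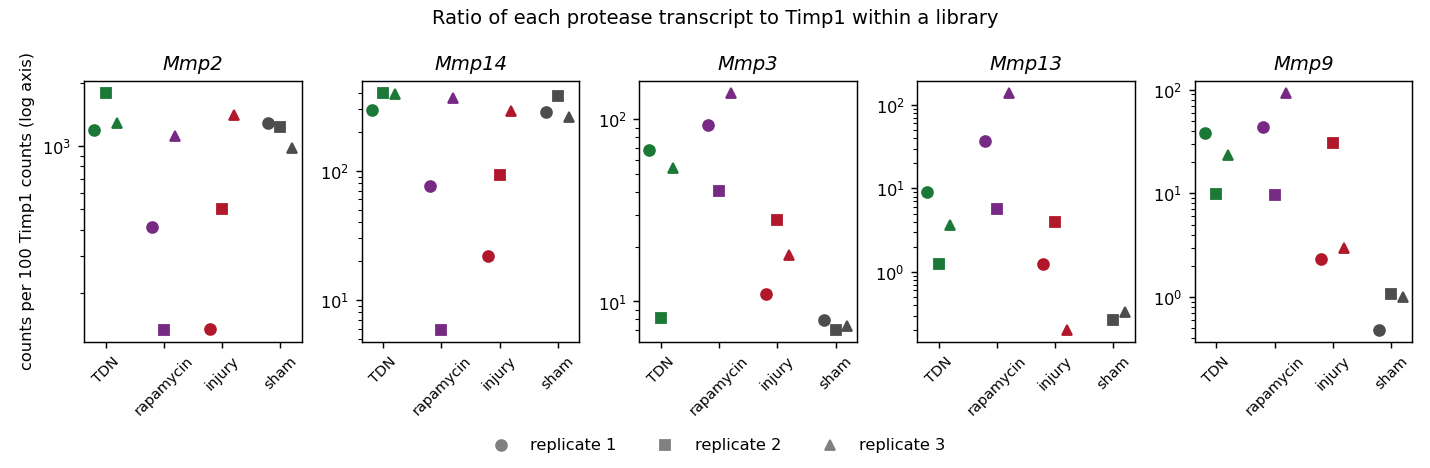
Counts of each protease per 100 Timp1 counts in each library (y axis, log scale) by group (x axis), with 1 symbol per replicate. Mmp2 and Mmp14 are low against Timp1 in 2 rapamycin and 2 injury libraries and near sham in TDN. Mmp3 and Mmp9 are above sham in every injured library, for Mmp3 only just so in TDN replicate 2. Sham replicate 1 has 0 Mmp13 counts and is not drawn in that panel.

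Across the 12 libraries, which share their groups, the levels of Mmp9 and Mmp13 were the most alike of the 6 genes (Pearson correlation of log2 CPM 0.964, Spearman 0.951). Mmp3 and Mmp13 had a Pearson correlation of 0.928, and Mmp3 and Mmp9 one of 0.925. After the group means were taken off, the correlation was 0.919 for Mmp9 with Mmp13 and 0.736 for Mmp3 with Mmp13. Mmp14 had a correlation of -0.292 with Timp1 (Spearman 0.070), and rapamycin replicate 2 ranked 2 for Timp1 and 12 for Mmp14. These values describe 12 libraries and were not tested. Outside the 6 genes, the tested gene most like Timp1 was ENSRNOG00000003117 (Pearson correlation 0.989 over 12 libraries) and the one most like Mmp9 was ENSRNOG00000026235 (0.985). ENSRNOG00000003117 had 66.4, 57.9 and 59.7 CPM in TDN, 91.3, 97.0 and 61.4 CPM in rapamycin, 99.7, 79.7 and 61.9 CPM in injury, and 61.4, 57.6 and 60.9 CPM in sham, so that its range was far narrower than that of Timp1. ENSRNOG00000026235 had 21.2, 7.29 and 14.4 CPM in TDN, 100.6, 28.4 and 28.2 CPM in rapamycin, 17.0, 27.2 and 6.01 CPM in injury, and 1.43, 1.997 and 2.09 CPM in sham.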

How the data were processed

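Total RNA of rat urethral tissue was sequenced from both ends after poly(A) enrichment, per the labels' protocols. The authors deposited whole-number counts per Ensembl gene, not normalized, and the submitters' processing notes name build Rnor 6.0. No aligner, counter, annotation release or strandedness is given in the sources used here. The table has 15102 gene rows that did not pass the filter used here and 17521 that did, and 3 library columns that match no labelled sample were not used.

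Groups were taken from the treatment labels. Genes were tested with the edgeR 4.0.16 quasi-likelihood test (R 4.3.3) on all tested genes, with TMM scaling, the default filter by group (a minimum count of 10), 1 coefficient per group over 12 libraries and no covariate. The common biological coefficient of variation was 0.504, with 8 residual degrees of freedom. Calls use a Benjamini-Hochberg threshold of 0.05 in each comparison. SE is the absolute log2 fold change over the root of F. CPM used library totals and TMM factors, and log2 CPM a prior count of 2. Tests were tried on simulated data first. Detection floors of 3 counts cover counting error only. Alternatives were DESeq2 1.42.0, limma 3.58.1 voom, other scalings and filters, fewer groups, the replicate number as a block, and each library left out in turn. Deviations of same-numbered libraries from their group means had correlations of 0.107, 0.138 and 0.261 between injury and sham. Between rapamycin and injury they were 0.092, 0.156 and 0.55. Each other pair of groups had a negative correlation among its replicates, and the labels give no pairing. No libraries of a group agreed within sampling noise.

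The 6 genes and all lists were chosen with earlier results of these data known. Named genes were the 6 and, for likeness, the tested gene with the highest Pearson correlation to each, of which 2 IDs are printed. Lists of other proteases, inhibitors, regulators and cell type markers were fixed by symbol and not evaluated, since the IDs could not be paired with symbols. The searched promoter sequences are RefSeq's, build GRCr8.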

Additional observations from a re-analysis of the deposited data

How the results depend on the processing

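Of the 6 genes, the number called did not change in rapamycin against injury or TDN against injury under any alternative run. It was 0 of 6 throughout, beside at most 0.171% and 0.251% of tested genes called. It changed in the other 4 comparisons. DESeq2 called 4 in injury against sham, 5 in rapamycin against sham, 3 in TDN against sham and 3 in TDN against rapamycin, where edgeR called 0, 3, 0 and 0. DESeq2 also called more of all tested genes, 11%, 32.9%, 1.79% and 9.92% in these comparisons. In the direction of the called members the shares were 7.38%, 20.9%, 1.59% and 8.99%. A fit of only the groups compared called 1 in TDN against sham, beside 5.88% of the genes tested in that fit, 3.65% as higher. A fit without the rapamycin group, chosen after seeing the data, called 1 in injury against sham, beside 15.1% of tested genes, 11% as higher. Leaving out 1 library gave 0 to 4 in injury against sham, 0 to 5 in rapamycin against sham, 0 to 2 in TDN against rapamycin and 0 in TDN against sham. The share of all tested genes called then reached 11.9%, 40.6%, 26.8% and 0.0896% in these comparisons. When the replicate number was a block, the calls among the 6 in injury against sham stayed at 0 and 76 genes were called in all against 114 without it. In rapamycin against sham the block added Mmp2 (edgeR adjusted p = 0.0430, and 0.0381 to 0.297 over 20 alternatives). There, 2586 genes (14.8%) were called in all against 2162 without it. In both comparisons the labels link same-numbered samples by the number alone.

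Over all tested genes, DESeq2 called 1923, 5763, 314, 30, 44 and 1738 genes in the 6 comparisons, in the order injury, rapamycin and TDN against sham, rapamycin and TDN against injury, and TDN against rapamycin, where edgeR called 114, 2162, 0, 0, 0 and 0. The fit of only the groups compared called 0, 34 and 993 against sham. Without a filter 1157 genes were called in rapamycin against sham, and with library totals alone, chosen after seeing the data, 731 there and 6 in TDN against sham. Without the rapamycin group 2616 were called in injury against sham and 10 in TDN against sham. Leaving out 1 library gave 0 to 2117, 1 to 7249, 0 to 16, 0 to 3, 0 and 0 to 4788 genes. The cause of these shifts was not tested.

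The sign of a log2 fold change turned in some alternatives only for values that were not called. For Mmp14 in injury against sham it was -0.0058 in DESeq2, -0.0069 in limma voom, -0.0058 with RLE scaling, -0.047 with the replicate block, -0.13 with library totals alone, and -0.13 to 0.14 with 1 library left out. In limma voom it was -0.14 for Mmp14 in rapamycin against sham, -0.13 for Mmp14 in rapamycin against injury, and 0.15 for Mmp9 and 0.14 for Mmp13 in TDN against injury. With library totals alone it was -0.20 for Timp1 in rapamycin against injury and 0.10 for Mmp2 in TDN against injury. With 1 library left out, the range was -0.29 to 0.22 for Mmp2, -1.62 to 0.32 for Mmp3, -1.48 to 0.70 for Mmp9 and -2.19 to 0.28 for Mmp13 in TDN against injury. It was -0.12 to 0.59 for Mmp2, -0.085 to 0.85 for Mmp14 and -0.57 to 1.87 for Timp1 in rapamycin against injury. It was -0.026 to 0.91 for Mmp14 in rapamycin against sham, -0.15 to 0.51 for Timp1 in TDN against sham, and -0.64 to 0.073 for Mmp2 and -0.40 to 0.54 for Mmp14 in TDN against rapamycin.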
